A study of Drosophila melanogaster and Drosophila simulans and Drosophila yakuba with 30 samples.

Results

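The regions described here are the stretches of the D. melanogaster genome (build dm3) that were bound in every one of 6 Sox DamID interval lists: Dichaete and SoxN in D. melanogaster, Dichaete and SoxN in D. simulans, and Dichaete in D. yakuba and D. pseudoobscura. They were chosen by their intervals. All 6 lists were merged wherever intervals shared at least 1 bp, and a region became a member when it held an interval of each list. This gave 950 members among 31862 merged regions, 2.98% of them. Since the lists themselves chose the members, everything said below about intervals in members is a description and carries no test.

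DamID marks where a protein meets DNA by fusing it to the bacterial Dam methylase, which methylates GATC sites near the places the fusion visits. Fragments between methylated GATC sites are then amplified and sequenced, so the unit of resolution is the GATC fragment. Dichaete and SoxN are group B Sox transcription factors with an HMG-box DNA-binding domain. Both are expressed in the early embryo and the developing central nervous system of Drosophila, where their functions partly overlap, and Dichaete also takes part in segmentation.

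Dichaete-Dam was assayed in embryos of 0 to 16 h of 4 species, D. melanogaster of strain w[1118], D. simulans of strain w[501], D. yakuba of strain Cam-115 and D. pseudoobscura of its reference strain, and SoxN-Dam in the first 2 of these. Each list compares the 3 fusion libraries of a species with its 3 Dam-only libraries, so the Dichaete and SoxN lists of D. melanogaster share their controls, as do those of D. simulans. All lines carried a piggyBac vector with UAS sites and an Hsp70 promoter, which held Dam alone in the control lines and Dam fused to the D. melanogaster Sox coding sequence in the others, so the fusions were not under the genes' own control, and whole embryos mix cell types. The lists hold no read counts: depth per library and spread between replicates are unknown from them. Reads of the other species reached dm3 by translation of coordinates, and a stretch is missing from a list when it could not be translated or when it missed the threshold of 0.05, which cannot be told apart.

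The D. pseudoobscura list was the one that most regions lacked. It held 2020 intervals, whereas the other lists held between 15142 (D. simulans SoxN) and 22952 (D. melanogaster SoxN). The study describes its D. pseudoobscura profiles as noisier and its replicates as agreeing less well than those of the other species, which the lists do not let be checked. Of the 6131 regions bound in all 5 other lists, 950 also held a D. pseudoobscura interval, 15.5% (Wilson 95% interval 14.6 to 16.4%, which covers counting error only). The other 5181 regions lacked D. pseudoobscura alone. By contrast, 86 regions lacked D. simulans Dichaete alone, 42 lacked D. simulans SoxN, 23 lacked D. yakuba, 6 lacked D. melanogaster Dichaete and 3 lacked D. melanogaster SoxN. In the regions that were missing 1 or more of the 5 other lists, 769 of 25731 held a D. pseudoobscura interval, 2.99%. Of these 769, 377 were made of D. pseudoobscura intervals alone and so held one by construction, which raises that share.

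The share of regions with a D. pseudoobscura interval was larger where more of the other lists were present. It was 0.627% of 12437 regions bound in 1 other list, 1.10% of 6027 regions with 2, 2.42% of 3629 regions with 3 and 4.91% of 3261 regions with 4, before the 15.5% seen with all 5. The regions with none of the other lists were the 377 made of D. pseudoobscura intervals alone. Counted by interval, 1238 of the 2020 D. pseudoobscura intervals lay in members, 61.3% (59.1 to 63.4%).

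Members were long regions. Their median length was 4652 bp (quartiles 2875 and 7325 bp), compared with 2633 bp (1636 and 4171 bp) for the 5181 regions that lacked only D. pseudoobscura and 787 bp for all merged regions. They ranged from 328 to 27078 bp and added up to 5.38 Mb, 11.9% of the 45.1 Mb in merged regions. Length is not independent of the rule, since a longer region has more bases for an interval of any list to meet.

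Members were found on every chromosome arm of the lists. There were 207 on 2L, 210 on 2R, 210 on 3L, 184 on 3R, 12 on chromosome 4 and 127 on X. Per Mb of the extent covered by the lists this was 9.00 on 2L, 9.93 on 2R, 8.56 on 3L, 6.59 on 3R, 9.37 on chromosome 4 and 5.66 on X. The arms fall in a different order from that of the regions bound in the 5 other lists, which ran at 71.1 per Mb on chromosome 4 and between 48.2 (X) and 54.8 (2R) per Mb elsewhere. Of those regions, 18.0% were members on 2L (15.9 to 20.3%), 18.1% on 2R (16.0 to 20.5%) and 17.0% on 3L (15.0 to 19.2%). The share was 13.0% on 3R (11.3 to 14.8%), 13.2% on chromosome 4 (7.71 to 21.6%) and 11.8% on X (9.97 to 13.8%). The 95% intervals for 3R and X lay below those for 2L and 2R, but they cover counting error only and are no test between arms. The 12 members of chromosome 4 left its share too wide to be placed. The D. pseudoobscura list held 427 intervals on 2L, 428 on 2R, 468 on 3L, 387 on 3R and 288 on X. Of these, 66.1% lay in members on 3R, 62.3% on 2L, 64.7% on 2R, 59.2% on 3L and 52.1% on X. The part of list size in the shares was not tested.

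Each list contributed differently to a member. D. yakuba Dichaete intervals covered a median of 85.2% of the member (quartiles 68.1 and 98.7%), D. melanogaster Dichaete 71.9% (52.6 and 88.6%), D. melanogaster SoxN 69.3% (52.2 and 86.1%) and D. simulans SoxN 59.0% (37.2 and 79.2%). D. simulans Dichaete covered 39.5% (24.2 and 57.1%) and D. pseudoobscura Dichaete 12.5% (5.95 and 22.5%). Within D. simulans, SoxN intervals thus took up more of the members than Dichaete intervals, whereas in D. melanogaster the 2 proteins took up about equal parts. The ends of members were most often those of a D. yakuba interval (583 left and 551 right ends), and 223 members were spanned from end to end by 1 D. yakuba interval. Only 3 were spanned by 1 D. pseudoobscura interval. D. pseudoobscura intervals covered under 10% of the region in 388 members and at least 50% in 33.

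The other 5 lists also covered more DNA in members than in the 5181 regions that lacked only D. pseudoobscura. The median was 2990 bp in members, against 1499 bp in those regions, for D. melanogaster Dichaete, 3014 against 1410 bp for D. melanogaster SoxN, and 3693 against 1955 bp for D. yakuba. For D. simulans it was 1672 against 1030 bp for Dichaete and 2555 against 1101 bp for SoxN. As a share of region length the picture was less uniform: D. simulans Dichaete covered 39.5% of a member, against 44.0% of a region lacking D. pseudoobscura, and D. yakuba 85.2% against 84.3%. For D. simulans SoxN the shares were 59.0% and 46.3%, and for D. melanogaster they were 71.9% and 63.3% for Dichaete and 69.3% and 59.5% for SoxN. The stricter D. melanogaster lists of the authors, at a threshold of 0.01, still held intervals of both proteins in 929 of 950 members (97.8%), and in 4696 of 5181 regions that lacked only D. pseudoobscura (90.6%). Members were the longer regions (median 4652 against 2633 bp), and no value at equal length was computed.

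Being bound in all 6 lists did not mean that the lists met at 1 place. A core stretch, defined as a run of bases covered by all 6 lists, was present in 526 of 950 members, 55.4% (52.2 to 58.5%). In the other 424 the intervals only formed a chain: at the deepest base 5 lists overlapped in 387 members, 4 in 32 and 3 in 5. Over all bases of members, 49.1% were covered by at least 4 lists, 29.8% by at least 5 and 4.96% by all 6. In the regions that lacked only D. pseudoobscura, 36.0% of bases were covered by at least 4 lists and 19.6% by 5. Such regions can reach at most 5 lists, whereas the D. pseudoobscura list counts toward the depth of members. Part of the greater depth of members is thus built in.

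In the 424 members without a core stretch, it was mostly the D. pseudoobscura interval that lay aside. In 364 of them the 5 other lists shared a stretch that no D. pseudoobscura interval entered. The gap between the 2 had a median of 198 bp and reached 8817 bp, and in 141 members it was 0, the interval abutting the shared stretch on either side without sharing a base. D. simulans Dichaete was the list left out in 113 members, D. simulans SoxN in 31, D. yakuba in 29, D. melanogaster Dichaete in 6 and D. melanogaster SoxN in 4 (a member can count under several lists). Seen from the D. pseudoobscura side, 626 of the 1238 intervals in members directly overlapped intervals of all 5 other lists, 282 of 4, 159 of 3, 82 of 2 and 89 of 1. D. yakuba overlapped 89.7% of these intervals, D. melanogaster SoxN 87.2%, D. melanogaster Dichaete 86.8%, D. simulans SoxN 76.6% and D. simulans Dichaete 62.5%.

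How much the D. pseudoobscura list offered went along with the presence of a core stretch. In 388 members that list contributed a single GATC fragment, and 149 of these had a core stretch, 38.4% (33.7 to 43.3%). Among the 562 members with 2 or more such fragments, 377 did, 67.1% (63.1 to 70.8%). Since a core stretch needs D. pseudoobscura bases, more fragments give more places for one, and the contrast is partly built in. Most members (759) held 1 D. pseudoobscura interval, and 59 held 3 or more, with at most 8. These intervals were about as long in members as elsewhere (median 467 against 480 bp), but 48.6% of those in members and 70.5% of those elsewhere consisted of a single fragment.

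Core stretches were short. The longest of each member had a median length of 357 bp (quartiles 202 and 571 bp), with a range of 6 to 3100 bp, and 40 of 526 reached 1000 bp while 42 stayed under 100 bp. All 633 core stretches together made up 0.267 Mb, 8.22% of the DNA in members that had one. A single core stretch was found in 460 members, 2 in 46 and 3 or more in 20, with at most 7. Members with a core stretch were longer than those without, at a median of 5369 bp against 4220 bp.

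The length of the core stretch was mostly that of the D. pseudoobscura interval. In 347 of 526 members (66.0%) the longest core stretch was exactly 1 whole D. pseudoobscura interval, nested inside intervals of all other lists. Of the 1052 ends of these stretches, 80.6% were ends of a D. pseudoobscura interval, 36.2% of a D. simulans Dichaete interval, 16.6% of D. simulans SoxN, 14.2% of D. melanogaster SoxN, 11.7% of D. melanogaster Dichaete and 11.0% of D. yakuba. Because all lists were called on the same GATC fragments, ends could coincide to the base. At 381 ends at least 2 lists stopped at the same base, and at 32 all 6 did.

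Core stretches lay along the whole region, and fewer of them near its ends. The rule partly sets this, since a region ends where its outermost interval does, whereas a core stretch needs every list. No reference for the place of core stretches was computed, so whether they lay more centrally than the rule gives was not tested. The core centre was a median of 29.9% of the region length away from the nearer end, where 0 would be the end and 50 the middle. Counted from the left end, 76 members had it in the first 20% of the region, 122 between 20 and 40%, 149 between 40 and 60%, 114 between 60 and 80% and 65 in the last 20%. There was no marked side: 280 of 526 centres lay left of the middle. In 42 members the centre fell within 10% of the region length from an end.

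**Figure D1:**
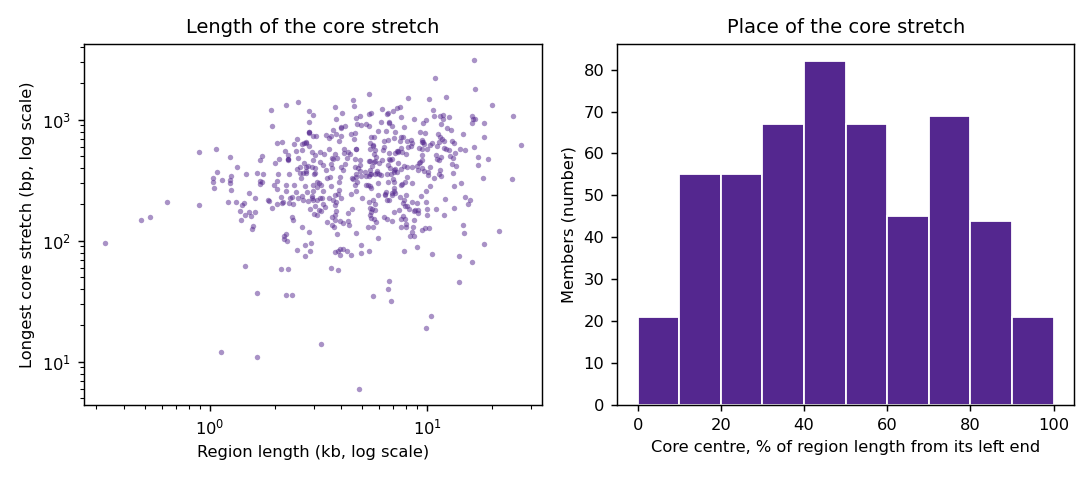
Length and place of the core stretch in the 526 members that have one. Left, the longest core stretch (bp) against the length of the region (kb), both on log axes, 1 point a member: stretches run from 6 to 3100 bp with quartiles of 202 and 571 bp. Right, number of members by the distance of the core centre from the left end, in percent of region length: 149 members lie between 40 and 60%, 76 in the first 20% and 65 in the last 20%.

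Cover by each list fell away from the core centre at different rates. At 500 bp to either side, D. yakuba intervals still covered 80.3% of the 526 members, D. melanogaster Dichaete 76.7%, D. melanogaster SoxN 75.1% and D. simulans SoxN 72.1%. D. simulans Dichaete was down to 51.8% and D. pseudoobscura to 17.7% at that distance. At 2000 bp the shares were 55.2% for D. yakuba, 43.1% for both D. melanogaster lists, 38.9% for D. simulans SoxN, 25.8% for D. simulans Dichaete and 3.80% for D. pseudoobscura. At 5000 bp, where many positions are outside the member, D. yakuba covered 43.4% and D. pseudoobscura 3.71%.

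**Figure D2:**
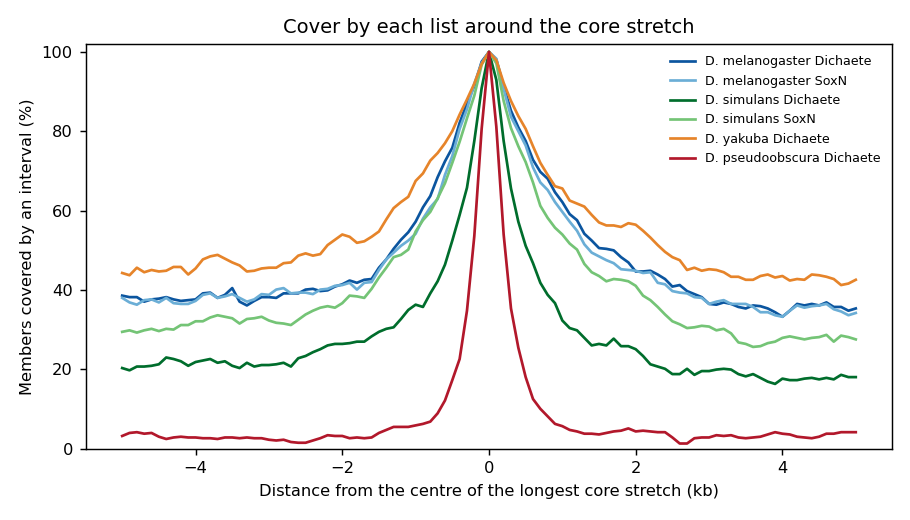
Percent of the 526 members with a core stretch that are covered by an interval of each list, against distance (kb) from the centre of the longest core stretch; all lines meet at 100% at the centre by definition. D. pseudoobscura falls to 17.7% within 500 bp, D. simulans Dichaete to 51.8%, and the other 4 lists stay between 72.1 and 80.3%.

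The 5 longest members show how these parts combine. The longest, on chromosome 3L from 14935750 to 14962827, spanned 27078 bp. D. melanogaster Dichaete covered 25692 bp of it, D. yakuba 25369 bp, D. simulans SoxN 22584 bp and D. melanogaster SoxN 22551 bp, whereas D. simulans Dichaete covered 8588 bp in 11 intervals and D. pseudoobscura 7950 bp in 8 intervals. Its 5 core stretches totalled 2359 bp, the longest being 615 bp. The next, on 2R from 6411750 to 6436710, had 5 D. pseudoobscura intervals and 6 core stretches with a total of 3645 bp. The other 3 were on X: 6874004 to 6898591, 13527180 to 13548704 and 3027958 to 3047823. Each of these held a single D. pseudoobscura interval and a single core stretch, of 324, 121 and 1329 bp in that order. In the first of them that interval covered 1.32% of the region, against 97.6% for D. yakuba.

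The longest core stretch, 3100 bp, lay on 2R from 9447721 to 9450820, in a member of 16442 bp (9446967 to 9463408). D. melanogaster Dichaete covered that member completely, D. yakuba 97.0%, D. melanogaster SoxN 93.5%, D. simulans SoxN 80.0%, D. simulans Dichaete 60.9% and D. pseudoobscura 52.3%. It had 5 core stretches and their sum, 6704 bp, was the largest of all members. The stretches next in length were of 2215 bp on 2L (2160530 to 2162744), 1783 bp on 3L (612934 to 614716), 1633 bp on 2R (12042132 to 12043764) and 1548 bp on 2L (2182208 to 2183755). Both on 2L belong to neighbouring members, 2160152 to 2171084 and 2172251 to 2184492. The stretch on 3L sits in a member of 16694 bp (611242 to 627935) and that on 2R in one of 5387 bp (12041071 to 12046457).

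At the dpp locus on 2L, where the D. melanogaster Dichaete intervals were drawn in the study, the longest such interval lay in a member of 10341 bp (2444052 to 2454392). The gene encodes a BMP-type signalling ligand that patterns the dorsoventral axis. D. yakuba covered 9438 bp of the member, D. simulans SoxN 9113 bp, D. melanogaster Dichaete 8647 bp, D. melanogaster SoxN 8123 bp and D. simulans Dichaete 4175 bp. The single D. pseudoobscura interval, of 2 fragments, covered 973 bp, 9.41%. No base was common to all 6 lists there: the D. pseudoobscura interval ran from 2.94 to 3.91 kb of the region, within a gap of the D. simulans Dichaete list that ended at 4.20 kb.

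**Figure D3:**
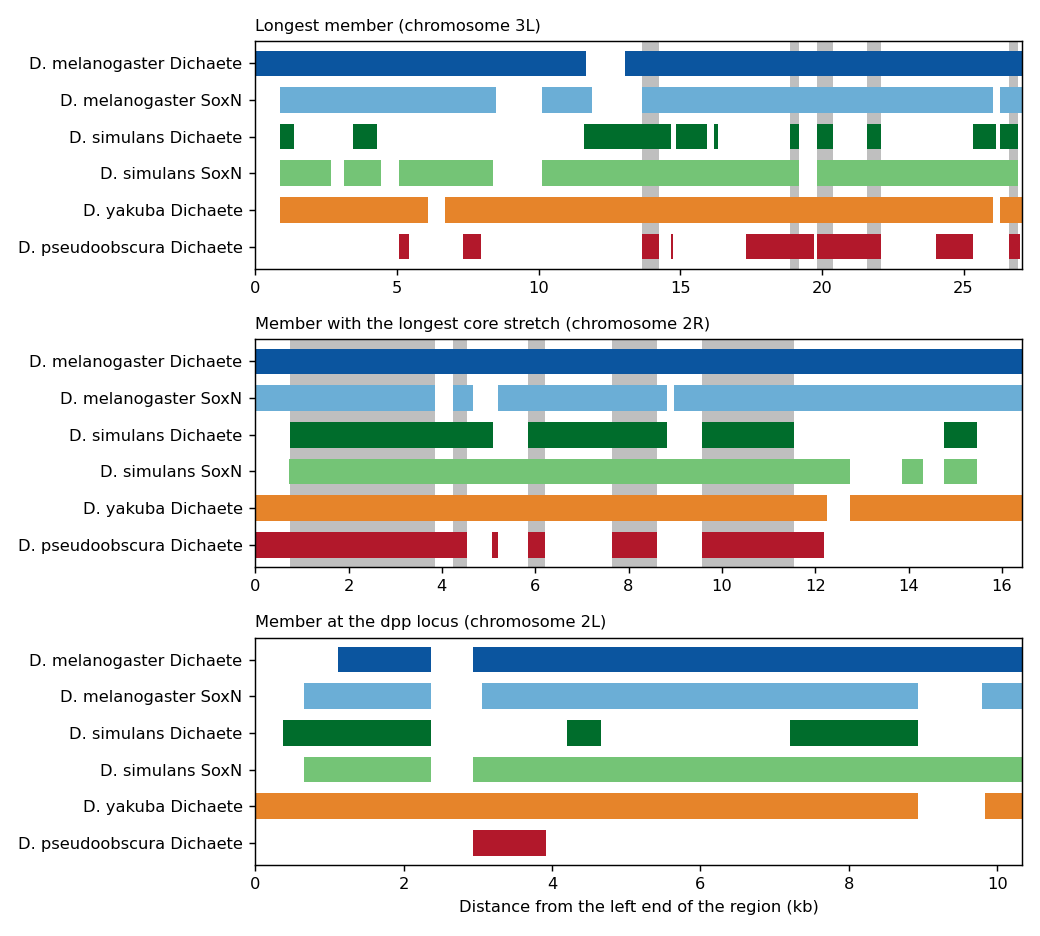
Intervals of the 6 lists (coloured bars, 1 line a list) in 3 members, drawn to scale against distance (kb) from the left end of the region; grey bands are core stretches, covered by all 6 lists. The longest member (27.1 kb) and the one with the longest core stretch (16.4 kb) have 5 core stretches each, and the member at the dpp locus (10.3 kb) has none because D. simulans Dichaete is absent where D. pseudoobscura is present.

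The edge of the definition is narrow. The 3 shortest core stretches were of 6 bp on 3L (22426408 to 22426413), 11 bp on 2R (17990079 to 17990089) and 12 bp on 2R (7660798 to 7660809), in members of 4864 bp (22422561 to 22427424), 1646 bp (17989972 to 17991617) and 1127 bp (7660127 to 7661253). The last 2 were each a whole D. pseudoobscura interval of a single short GATC fragment. Just outside, 56 of the 5181 regions that lacked only D. pseudoobscura were touched end to end by one of its intervals without sharing a base. The first 3 of them by position were on 2L, at 4812038 to 4814420, 6047499 to 6050176 and 8155344 to 8160183. A D. pseudoobscura interval lay within 1000 bp of 174 such regions and within 10 kb (10000 bp) of 1603, with a median distance of 20605 bp.

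The spacing of members was measured between nearest ends. Another member was found within 10 kb of 381 members, 40.1% (37.0 to 43.3%), and the median distance to the nearest member was 17400 bp. The same share was 84.8% for the 6131 regions bound in the 5 other lists, with a median distance of 2503 bp, and 99.3% for all merged regions, with 581 bp. These sets are larger and hence denser, and no value at equal density was computed, so whether members lay closer together than their number gives was not tested. Within 50 kb, 73.4% of members had another.

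Joining members across gaps of up to 50 kb gave 220 clusters of 2 or more, which held 697 members, and left 253 members alone. Of these clusters, 104 were pairs and 38 had 5 or more members, 230 members in all. Clusters of 5 or more numbered 8 on 2L, 9 on 2R, 11 on 3L, 7 on 3R, 3 on X and 0 on chromosome 4. The largest had 12 members in 117 kb of 2L (14433180 to 14550632), where 17 regions were bound in the 5 other lists. The next ones by size and position had 9 members each: 2L from 5224094 to 5400722 (177 kb, 20 regions bound in the 5 other lists) and 3L from 587232 to 767668 (180 kb, 16 such regions). The 3L cluster contains the 1783-bp core stretch. In all 3 clusters had 9 members, the remaining one on 3R.

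The 12 members of the largest cluster differed in size and in how the lists met. They measured between 634 and 8094 bp, and 9 had a core stretch, of 76 to 693 bp. The longest core stretches, of 693, 672, 667 and 657 bp, were in the members 14447256 to 14451870, 14461207 to 14469300, 14528881 to 14535239 and 14518704 to 14521463. That of 14545140 to 14550632 was 360 bp long, that of 14470813 to 14473761 was 237 bp, that of 14526550 to 14527948 was 199 bp and that of 14433180 to 14437152 was 76 bp. The smallest member, 14522476 to 14523109, was covered from end to end by D. melanogaster Dichaete and SoxN, D. simulans Dichaete and D. pseudoobscura, and its core stretch of 208 bp was the extent of D. simulans SoxN. The 3 without a core stretch were 14456259 to 14460265, 14481113 to 14488000 and 14515634 to 14518703, with 5 lists at their deepest base. The last of these abutted the member that starts at 14518704 without overlapping it.

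On chromosome 4, a small and largely heterochromatic chromosome, 9 of the 12 members were chains. Of 12 members 3 had a core stretch, of 169 bp (717931 to 722276), 690 bp (728032 to 730541) and 96 bp (1183828 to 1186747). This was 25.0% (8.89 to 53.2%), against 55.4% of all members. Each of the 12 held 1 D. pseudoobscura interval, which was a single GATC fragment in 10 of them. Among all members with a single such fragment, 38.4% had a core stretch. In the member 530011 to 534223 the D. melanogaster and D. simulans lists each covered 424 bp, D. pseudoobscura covered 1114 bp elsewhere, and only the D. yakuba interval, which spanned all 4213 bp, linked them. In 758579 to 763081 D. pseudoobscura covered 4071 bp and the D. melanogaster lists 432 bp each, again under 1 D. yakuba interval of 4503 bp. The member 474962 to 482074 had at most 4 lists at a base. The other 6 without a core stretch (196778 to 200990, 518920 to 526729, 619091 to 623122, 678282 to 686086, 904715 to 908272 and 1088377 to 1095093) had 5 lists at the deepest base, with D. pseudoobscura over 2.17 to 32.1% of the region.

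To set the number of members beside what the same lists give out of register, the D. pseudoobscura list was slid along each chromosome by a distance drawn at random, with intervals past the end re-entering at the start, and all 6 lists were merged again. Over 1000 such circular shifts the number of regions bound in all 6 lists averaged 387, with a range of 328 to 482, so the 950 members in place were 2.45 times the mean. By arm, the members in place and the mean after shifts were 207 and 78.5 on 2L, 210 and 86.6 on 2R, 210 and 89.6 on 3L, 184 and 68.8 on 3R, and 127 and 55.3 on X. On those 5 arms the number in place was above the highest shift. On chromosome 4 it was 12, against a mean of 8.43 and a range of 2 to 15, so the members there lay within the range of the shifts. No p-value is given, since the overlap chose the members. Moved intervals can also fall on sequence to which no D. pseudoobscura read could be translated, and the part of this in the difference was not tested.

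**Figure D4:**
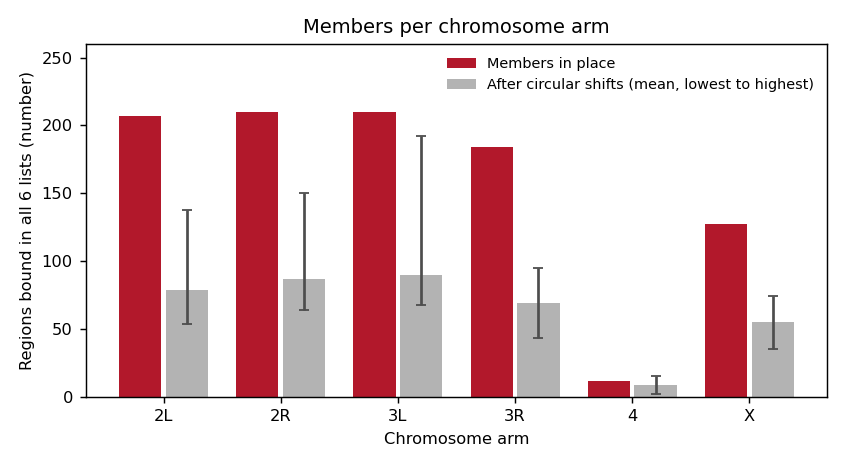
Number of regions bound in all 6 lists on each chromosome arm, with the D. pseudoobscura list in place (red) and after 1000 circular shifts (grey, mean, with bars from the lowest to the highest shift). On 5 arms the number in place lies above the highest shift, and on chromosome 4 the 12 members lie within 2 to 15.

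The same comparison was made by the number of other lists in a region. The shifts keep the number of D. pseudoobscura intervals, so more of them in some regions leaves fewer for the rest. Over the first 200 shifts, regions bound in all 5 other lists held a D. pseudoobscura interval in 15.5% of cases in place and 6.29% after shifts. For 4 other lists it was 4.91% and 3.63%. For 3 it was 2.42% and 2.99%, for 2 it was 1.10% and 1.99%, and for 1 it was 0.627% and 1.40%. As the counterpart of the larger number with 5 other lists, the numbers were below the lowest of these shifts with 1 other list (78 against at least 139) and with 2 (66 against at least 87). With 3 other lists the number in place, 88, was within the range of the shifts (85 to 146), and with 4 it was above it, 160 against at most 147. Regions made of D. pseudoobscura intervals alone numbered 377 in place and 1043 on average after shifts.

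Region length was considered next. The regions bound in the 5 other lists were ranked by length into 5 classes of equal size, without using the D. pseudoobscura list. In the shortest class (164 to 1541 bp) 4.80% were reached in place, against 2.69% after shifts, a ratio of 1.78. In the middle class (2369 to 3383 bp) it was 12.5% against 5.28%, a ratio of 2.36. In the longest (5279 to 27078 bp) it was 33.5% against 12.2%, a ratio of 2.74. In each of the 5 classes the number in place was above the highest of the shifts. The shifts in this comparison were again the first 200.

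The members in place and those made by the first 200 shifts were also set side by side for how the lists met. A core stretch was present in 55.4% of members in place and in 36.4% after shifts (range 30.7 to 42.4%), and its median length was 357 bp in place and 255 bp after shifts (186 to 326 bp). Another member lay within 10 kb of 40.1% of members in place and 21.4% after shifts (12.5 to 29.0%), but the 950 members in place were also more numerous than the shifted ones, which alone brings neighbours closer, so these shares are not comparable at equal density. The median length of the region did not stand apart: it was 4652 bp in place, within the range of 3887 to 4925 bp after shifts. When only regions with a core stretch were counted, the 526 in place were 3.72 times the mean of 141 over the 1000 shifts. In place, the lists share the borders of GATC fragments, whereas a moved D. pseudoobscura list is off these borders. The part of this in the presence, length and number of core stretches was not tested.

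The D. pseudoobscura list was also moved by fixed distances. A moved interval can still meet the same region or a neighbouring one, so the numbers also depend on region length and spacing. With a move of 500 bp, averaged over both directions, 930 regions were bound in all 6 lists. There were 878 at 1 kb, 765.5 at 2 kb, 664 at 5 kb, 578.5 at 10 kb, 456 at 50 kb and 373 at 200 kb. From 50 kb on the number lay within the range of the random shifts. The number of regions with a core stretch fell off sooner, to 392 at 1 kb, 311 at 2 kb and 139.5 at 200 kb. Moves of 100 bp and 250 bp gave higher numbers than the list in place. At 100 bp there were 975 regions, 606.5 of them with a core stretch, and at 250 bp 962 and 565, against 950 and 526 in place. In place, D. pseudoobscura intervals abutted 56 of the regions that lacked them and, in 141 members, the stretch shared by the 5 other lists; the part of such contacts in these numbers was not tested.

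**Figure D5:**
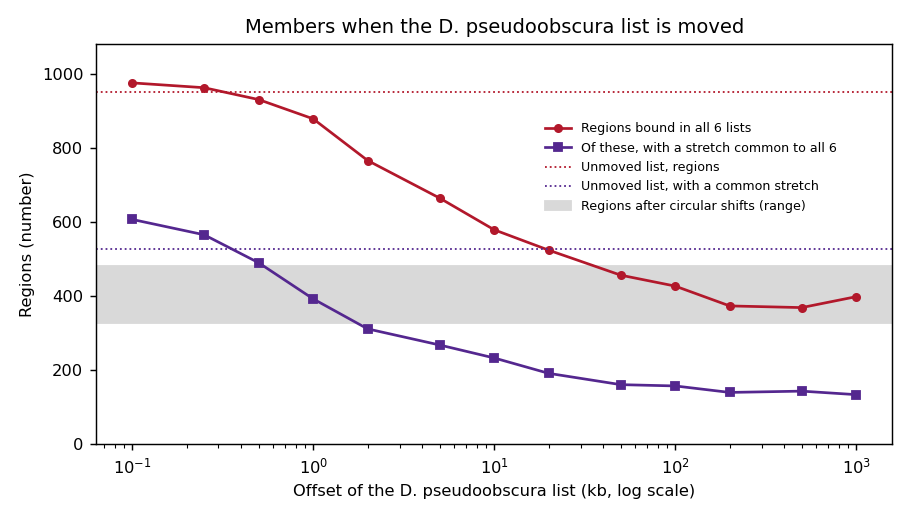
Regions bound in all 6 lists (red circles) and those of them with a core stretch (purple squares) when the D. pseudoobscura list is moved by the distance on the x axis (kb, log scale; mean of both directions). Dotted lines give the list in place (950 and 526) and the grey band the range of regions over 1000 random shifts (328 to 482): the red line is at 975 after a move of 0.1 kb and enters the band at 50 kb.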

How the data were processed

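DamID-seq was performed in 30 samples (10 groups of 3 replicates). The authors trimmed reads with Cutadapt, mapped them with bowtie2, extended them to 200 bp, counted them on GATC fragments and compared fusion with Dam-only libraries in DESeq2 1.6.1. Per the labels, bedtools 2.21.1, HOMER 4.7 and SAMtools 0.1.19 were also used. Enriched fragments within 100 bp were merged. LiftOver carried the other species' reads to dm3 (minMatch 0.7 for D. simulans and D. yakuba, 0.5 for D. pseudoobscura), where intervals were called again. The deposited lists give chromosome, start, end and a whole number taken, from its values, as the number of merged fragments; they hold no counts of reads and no p-values. Of 12 lists, 8 were used. The 4 in the coordinates of other genomes were not.

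Merging, cover by all lists and shifts used NumPy 2.4.6 under Python 3.11.15, Wilson intervals SciPy 1.17.1 and figures Matplotlib 3.10.9; the functions were tested on simulated lists. Intervals that only touch were not merged. The largest end in any list served as the end of a chromosome. Coordinates are 1-based. Shift distances were drawn evenly over the chromosome length, so a few shifts are short. Regions named are the 5 longest members, the 5 with the longest core stretch, the 3 largest clusters with each member of the first, all members of chromosome 4, the 3 shortest core stretches, the 3 nearest misses and the member at dpp. The members and the choices made here were set with earlier results of these data known. Genes and sequences at members were not analysed here, since no genome or annotation of build dm3 was used. Alternatives were a larger overlap, the stricter D. melanogaster lists, longer intervals, other ways of merging, a minimum cover, a shared base, and other distances, shifts and ways of counting.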

Additional observations from a re-analysis of the deposited data

How the results depend on the processing

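The 6 summary values were set against alternatives in 48 comparisons. In 23 the value stayed within the counting interval of the reported one (or within 1.5 times, for the number of members), and 25 moved. No ratio to the shifts came below 1. Some outcomes were fixed by the alternative itself, so the tally is no measure of robustness. Requiring 1 common base keeps the same core stretches, so their length and place could not move. A wider distance can only raise the share with a neighbour. Below, the share reached by the D. pseudoobscura list is of the regions that met the same setting in the other 5 lists. Its denominator thus differs from the 6131 regions used above. Requiring overlaps and a core stretch of at least 100 bp left 485 members, 9.77% of 4962 such regions. Of these members 28.7% had another within 10 kb, and their number was 4.25 times the mean of shifts. With intervals of at least 500 bp only, there were 400 members, a share of 11.0%, a median core stretch of 643 bp, 25.2% within 10 kb and a ratio of 2.65. Joining gaps of up to 1000 bp gave a share of 19.8% and a ratio of 1.76. With a cover of at least 50% asked of each list, there were 8 members, a share of 0.812%, a median core stretch of 1338 bp at 35.1% from the nearer end, 0% within 10 kb and a ratio of 3.10 to a mean of 2.58. The shifts ranged from 0 to 9 in that setting, so the 8 members lay within their range. Requiring 1 bp common to all lists left 526 members, 10.4% of 5059 regions, with 28.7% within 10 kb and a ratio of 3.72. Neighbours were 57.7% at 25 kb, 73.4% at 50 kb and 23.9% between midpoints at 10 kb. Counting D. pseudoobscura intervals in place of regions gave a ratio of 2.81 (1238 against 441). The stricter D. melanogaster lists (907 members, ratio 2.60) and merging of touching intervals (1001 members, ratio 2.44) moved none of the 6 values, and 1 common fraction of the chromosome length for all shifts left the ratio at 2.45, although there the shifts ranged from 333 to 975. The highest, which moved the list by 7 to 170 bp, was the 1 shift above the 950 in place, and the next reached 585. No paired analysis was possible because each list was called on all replicates together. The depth behind intervals is unknown from the lists.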
